A study of Mus musculus with 8 samples.

Results

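*Otx2*, *Pou3f1*, *Fgf5*, *Zic2*, *Sox3*, *Sox4*, *Grhl2* and *Foxd3* are genes known to rise when mouse embryonic stem cells (ESCs) leave the naive state for the formative and primed states. They were found by name in the deposited RNA-seq table, and 8 of 8 were present among 50600 gene names. In the embryo the naive state belongs to the preimplantation epiblast and the primed state to the epiblast after implantation. In culture, inhibitors of MEK and GSK3 with LIF hold ESCs in the naive state, and withdrawing them lets the factors OTX2 and POU3F1 rise and open the enhancers of the later state. OTX2 and POU3F1 are homeodomain factors, FGF5 is a growth factor secreted by the primed epiblast, ZIC2 is a zinc finger factor, SOX3 and SOX4 are HMG box factors, GRHL2 drives epithelial genes, and FOXD3 is a forkhead factor.

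All 8 libraries came from JUN-TetOn ESCs, an OG2 line with a doxycycline-inducible c-Jun, so every group carried the transgene and received doxycycline at 2 µg/ml. The strain is a mix of 129SVJ (1/2), C57B6 (3/8) and CBA (1/8), and the cells were at passage 12 in feeder-free medium with serum, PD0325901, Chir99021 and LIF. The groups differed in what was added with doxycycline, namely the solvent DMSO, PFI-3, BI-9564, or PFI-3 with BI-9564 (P+B), with 2 libraries per group. The labels give 6 h for each treatment, while the study's supplement describes a longer JUN induction with the compounds present for part of it, and this was not settled. PFI-3 blocks the bromodomain of BRG1 and BI-9564 those of BRD7 and BRD9, which are all subunits of complexes of the BAF chromatin remodelling family, and the study used them to ask whether reading of acetylated histones by BAF is needed once JUN is induced. No library without doxycycline was analysed here, so the level of these genes before JUN induction is unknown. The labels do not say whether the 2 libraries of a group came from separate cultures, so p-values measure only the spread between these libraries.

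The values are TPM, a transcript level relative to all transcripts of a library and corrected for length, deposited as whole numbers. The libraries summed to 991574 to 991897, and the read depth behind them is unknown, so a low value has an unknown counting error. Markers of the labelled cell type were present: *Pou5f1*, the core pluripotency factor, was at 1104 to 1333 TPM, and the 13 naive genes examined summed to 528 to 1093. Among these 13, *Prdm14* was at 0 to 1 TPM. Markers of other cells were low, apart from the neural marker *Tubb3* at 54 to 103 TPM. The 10 fibroblast markers summed to 2 to 9 with *Col1a2*, *Postn*, *Dcn*, *Lum* and *Pdgfra* (5 of 10) at 0 in all libraries, the 10 mesoderm and endoderm markers summed to 10 to 19, and the 9 neural markers summed to 77 to 135, most of it *Tubb3* and *Nes*.

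JUN is known to bind AP-1 sites and the related cyclic AMP response element (CRE), so the 250 bases before each RefSeq gene start (GRCm38.p6) were searched on both strands for the AP-1 letters TGANTCA, the CRE letters TGACGTCA and the octamer ATGCAAAT, the recognition letters of POU factors. None of these motifs holds another. Promoters were matched for 4 of the 8 genes (*Foxd3*, *Fgf5*, *Sox4* and *Otx2*), with 7 promoters in all. *Pou3f1*, *Zic2*, *Sox3* and *Grhl2* are named only. One of these 7, that of *Foxd3*, held a CRE, against 508 of all 32851 promoters (1.55%). It is shown because *Foxd3* is the member with lower values in the libraries given BI-9564. The 250 bases before its start are chr4:99656049-99656298 on the plus strand, with the CRE in capitals, beginning 233 bases before the gene start.
Foxd3: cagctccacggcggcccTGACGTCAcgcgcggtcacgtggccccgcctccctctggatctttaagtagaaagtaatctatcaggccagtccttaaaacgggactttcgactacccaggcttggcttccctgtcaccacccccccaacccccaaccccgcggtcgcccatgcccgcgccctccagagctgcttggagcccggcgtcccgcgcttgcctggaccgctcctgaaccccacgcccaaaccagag
None of the 7 promoters held the AP-1 letters, which 2217 promoters (6.75%) held, or the octamer, which 526 promoters (1.6%) held. A match is a description of letters and not of binding.

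The level of these genes was low in all treatments. Over the 8 libraries the mean was 10.62 TPM for *Zic2*, 5.25 for *Pou3f1*, 4 for *Foxd3*, 3.25 for *Sox3*, 2.875 for *Grhl2*, 2 for *Sox4* and 0.5 for *Otx2*, and *Fgf5* was listed at 0 in all 8. By mean TPM *Zic2* stood at rank 8420 of the 50600 names. Of these names 33075 were at 0 in every library and 10222 had a mean of at least 5 TPM. The neighbours in this order from *Pou3f1* to *Sox4* overlapped in their values across libraries, while all 8 values of *Zic2* were at least 6 TPM and overlapped those of *Pou3f1*, which reached 8. Summed over the 8 genes, the libraries held 22 and 26 TPM under DMSO, 25 and 30 under PFI-3, 26 and 32 under BI-9564 and 29 and 38 under P+B. The P+B sum was above DMSO in both libraries, and *Zic2* accounted for 13 and 19 TPM of it.

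**Figure D1:**
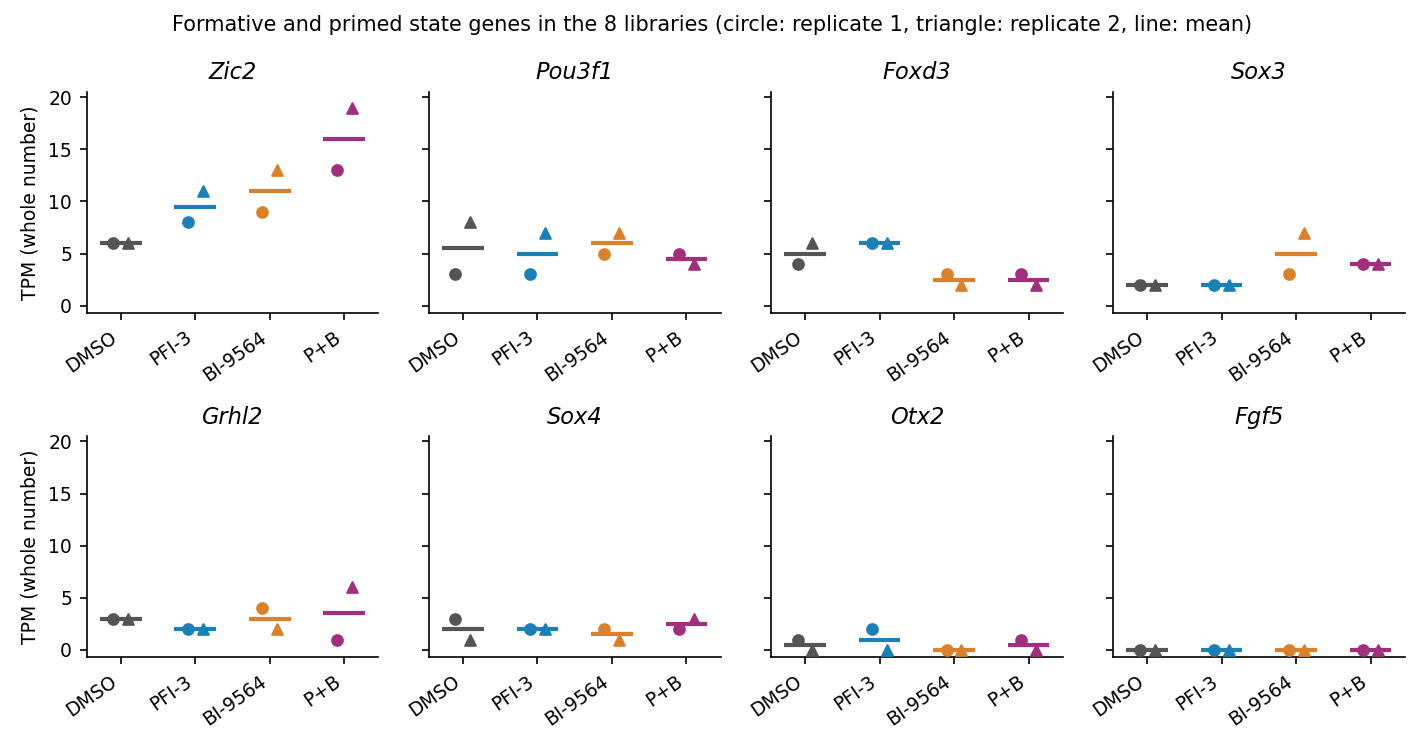
TPM (whole numbers, linear axis from 0) of each of the 8 genes in the 8 libraries by treatment, with circles for replicate 1, triangles for replicate 2 and a line at the mean. *Zic2* climbs from 6 TPM with DMSO to 13 and 19 with P+B, *Foxd3* is at 2 to 3 with BI-9564 and P+B, and *Fgf5* is at 0 throughout.

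*Zic2*, a ZIC family factor known to work at enhancers of the primed epiblast, was the member with the largest range. Its TPM was 6 and 6 under DMSO, 8 and 11 under PFI-3, 9 and 13 under BI-9564 and 13 and 19 under P+B. Both P+B libraries were at or above every other library, and P+B replicate 1 tied with BI-9564 replicate 2 at 13. The group means were 6 ± 0 TPM (SD, n = 2), 9.5 ± 2.12, 11 ± 2.83 and 16 ± 4.24 in the same order. *Zic2* lies at chr14:122475435-122479852 on the plus strand of mm10, with no annotated gene overlapping it.

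*Zic2* was higher with P+B than with DMSO by 1.26 on the log2(TPM + 1) scale (SE 0.28, 95% interval 0.61 to 1.90, limma adjusted p = 0.0439). A gene was called where the adjusted p was below 0.05 and the fold was 1.5 or more, and 4% of the 10222 genes tested were. The call was narrow. It was lost when genes down to a mean of 1 TPM were tested (adjusted p = 0.0602). It was also lost when any 1 of the 8 libraries was left out, at a log2 fold change of 1.00 to 1.51. Each of those fits leaves 1 library in a group and called fewer genes with P+B against DMSO than the full fit. Of the other listed genes called with P+B, *Pim2* and *Tubb3* also lost their calls in all 8 of these fits, and *Cldn6* in none. The cause of the loss at *Zic2* was not tested. With the replicate number as a block the adjusted p was 0.0125, in a fit that called 7.02% of genes. The fold of the group means was 2.67, and between 2.29 and 2.83 for any decimals dropped from the deposited numbers.

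With each compound alone the value of *Zic2* was higher than with DMSO without passing the test. The log2 difference was 0.76 with BI-9564 (95% interval 0.11 to 1.40, adjusted p = 0.278) and 0.57 with PFI-3 (interval -0.07 to 1.21, adjusted p = 0.772). These comparisons share the 2 DMSO libraries with that of P+B. Of the 10222 genes 0.108% were called with BI-9564 and 0% with PFI-3, where 694 genes had an unadjusted p under 0.05. With the replicate block BI-9564 called 1.53% of genes and PFI-3 0 of 10222 (1143 at an unadjusted p under 0.05), and *Zic2* was not called with either.

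The difference of P+B from either single compound did not pass the test at *Zic2*. The log2 difference was 0.69 from PFI-3 (interval 0.04 to 1.33, adjusted p = 0.274, 1.31% of genes called) and 0.50 from BI-9564 (interval -0.14 to 1.14, adjusted p = 0.758, 0.196% called). BI-9564 and PFI-3 differed by 0.19 (interval -0.46 to 0.83, adjusted p = 0.821, 0.108% called). Against the sum of both single changes, P+B differed by -0.07 (interval -0.98 to 0.84, adjusted p = 1). That comparison called 0% of genes, with 333 at an unadjusted p under 0.05. The interval leaves room for either more or less than the sum. With the replicate block 3.43% of genes were called for P+B against PFI-3, 0.802% for P+B against BI-9564 and 1.48% for BI-9564 against PFI-3, and neither *Zic2* nor *Pou3f1* was among them.

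*Pou3f1*, the POU factor that works with OTX2 at formative enhancers, was the other member with a mean of at least 5 TPM. Its TPM was 3 and 8 under DMSO, 3 and 7 under PFI-3, 5 and 7 under BI-9564 and 5 and 4 under P+B. The 2 libraries of the DMSO group spanned all the others. It was not called in any comparison: the log2 difference from DMSO was -0.13 with P+B (SE 0.49, interval -1.26 to 0.99, adjusted p = 0.904), -0.09 with PFI-3 (adjusted p = 0.992) and 0.21 with BI-9564 (adjusted p = 0.882). Intervals of this width do not show that it stayed the same. *Pou3f1* (chr4:124656807-124660655, plus strand) overlaps the antisense gene *Gm2164*, and strand use in the counting is not given in the sources used here.

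Testing down to a mean of 1 TPM brought in *Foxd3*, *Sox3*, *Grhl2* and *Sox4*, so that 6 of 8 members were tested among 13101 genes. None of these 6 was called in any comparison of treatments under that filter without the replicate block. The share of all genes called was 2.59% for P+B against DMSO, 0.588% for P+B against PFI-3 and 0.0153% for P+B against BI-9564. It was 0% for PFI-3 against DMSO, BI-9564 against DMSO, BI-9564 against PFI-3 and P+B against the sum, where 849, 1792, 1641 and 449 genes had an unadjusted p under 0.05. With the block *Zic2* was called for P+B against DMSO (adjusted p = 0.0218, 4.94% of genes called). No member was called with it for BI-9564 against DMSO (0.313%), P+B against PFI-3 (1.76%), P+B against BI-9564 (0.275%) or BI-9564 against PFI-3 (0.282%). The 4 added genes lie between 1 and 7 TPM, where the deposited values move in steps of 1.

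**Figure D2:**
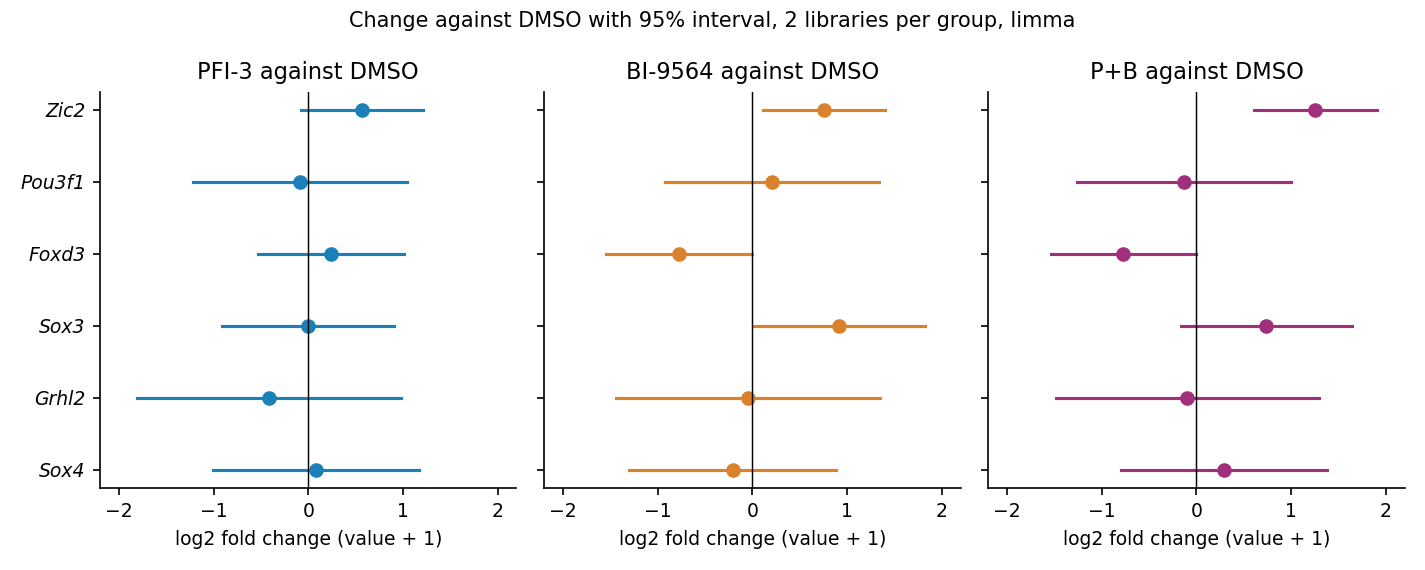
Log2 fold change of TPM + 1 against DMSO (points) with its 95% interval (bars) for the 6 members tested, in panels for PFI-3, BI-9564 and P+B, 2 libraries per group; the fit holds genes with a mean of at least 1 TPM. The interval of *Zic2* with P+B lies furthest from 0, those of *Sox3* and *Foxd3* with BI-9564 end close to 0, and those of *Pou3f1*, *Grhl2* and *Sox4* cross it in all 3 panels.

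*Foxd3*, which is known to move enhancers from the naive to the primed state, had the lower values with BI-9564. Its TPM was 4 and 6 under DMSO, 6 and 6 under PFI-3, 3 and 2 under BI-9564 and 3 and 2 under P+B. The groups with BI-9564 did not overlap the groups without it. The log2 difference from DMSO was -0.77 both with BI-9564 and with P+B (SE 0.33), with adjusted p = 0.364 and 0.242, and 0.24 with PFI-3 (adjusted p = 0.948). P+B was below PFI-3 by -1.01 on the same scale (interval -1.78 to -0.25, adjusted p = 0.220). *Foxd3* (chr4:99656299-99658622, plus strand) contains the miRNA gene *Gm23366*.

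*Sox3*, a SOXB1 factor of the epiblast and early neural plate, had the opposite order. Its TPM was 2 in all 4 libraries with DMSO or PFI-3, 3 and 7 under BI-9564 and 4 and 4 under P+B. The log2 difference from DMSO was 0.92 with BI-9564 (interval 0.01 to 1.82, adjusted p = 0.363), 0.74 with P+B (interval -0.17 to 1.64, adjusted p = 0.332) and 0.00 with PFI-3. The value of 7 in 1 BI-9564 library set that group's mean of 5 ± 2.83 (SD, n = 2). With dropped decimals the fold of means could lie between 1.67 and 3 for BI-9564 and between 1.33 and 2.5 for P+B. *Sox3* lies at chrX:60891366-60893430 on the minus strand, with no overlapping gene.

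Since the libraries with BI-9564 stood apart at these genes, the 4 libraries with it (BI-9564 and P+B) were set against the 4 without it, a comparison chosen after the values were seen, so that its p-values serve as a description. *Foxd3* was at 2.5 ± 0.577 TPM with BI-9564 and 5.5 ± 1 without (SD, n = 4), and *Sox3* at 4.5 ± 1.73 and 2 ± 0. *Zic2* was at 13.5 ± 4.12 and 7.75 ± 2.36, and its libraries overlapped (9 to 19 against 6 to 11). Of the 6 members 2 did not overlap, *Sox3* above and *Foxd3* below, as was so for 11.6% of the 13101 genes.

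None of the members was called in this comparison without a block. At a mean of at least 5 the log2 difference of *Zic2* was 0.72 (SE 0.20, interval 0.27 to 1.18, adjusted p = 0.0664, 3.19% of genes called). With the replicate block it was called (adjusted p = 0.0222, 4.95% called). At a mean of at least 1 (2.22% called) *Foxd3* was at -0.89 (SE 0.23, interval -1.44 to -0.35, adjusted p = 0.0795) and *Sox3* at 0.83 (SE 0.27, interval 0.19 to 1.47, adjusted p = 0.136). *Pou3f1* (0.08), *Grhl2* (0.14) and *Sox4* (0.00) lay close to 0. With the block at this filter *Zic2* was called (adjusted p = 0.0326, 3.67% called) and *Foxd3* (adjusted p = 0.0674) and *Sox3* (adjusted p = 0.104) were not.

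The same split by PFI-3, also made after the values were seen, separated 0 of the 6 members, against 2.73% of genes. *Zic2* was at 12.75 ± 4.65 TPM with PFI-3 and 8.5 ± 3.32 without (SD, n = 4), a log2 difference of 0.54 (interval 0.08 to 0.99, adjusted p = 0.370, 0.323% called). No member was called down to a mean of 1 either (0.114% called), or with the replicate block (1.05% called, and 0.496% down to a mean of 1). Against DMSO alone the libraries of 3 of 6 members (*Zic2* and *Sox3* above, *Foxd3* below) did not overlap with P+B or with BI-9564. With 2 libraries against 2 this was so for 43.6% and 37.6% of genes. With PFI-3 it held for 2 of 6 (*Zic2* above, *Grhl2* below), against 26.7%. For 2 libraries against 2, the smallest p of a two-sided exact permutation test is 0.333.

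**Figure D3:**
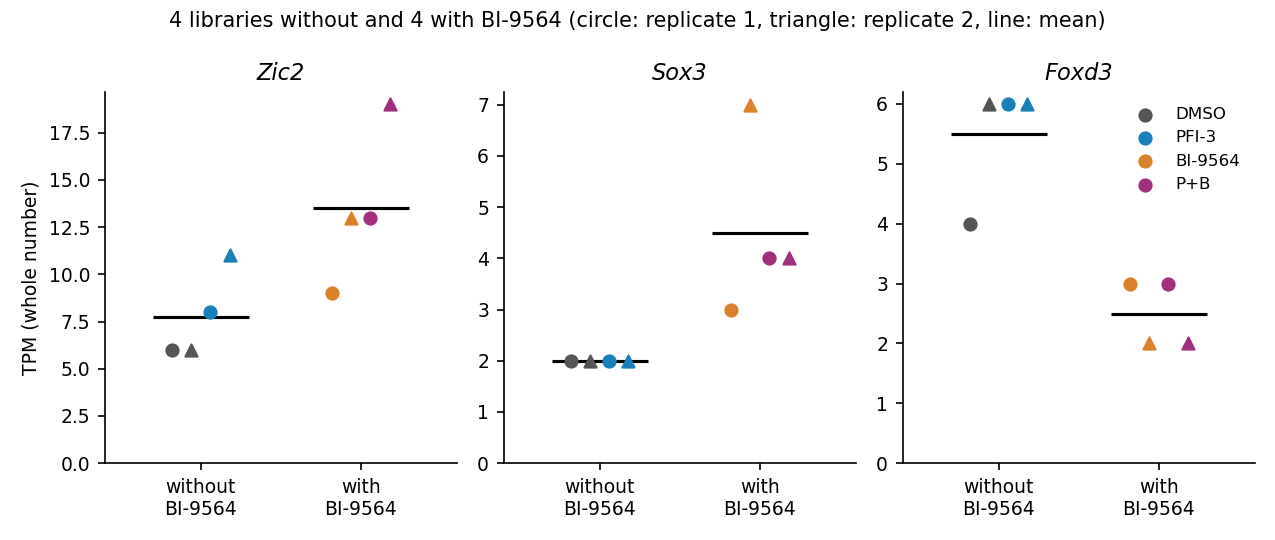
TPM of *Zic2*, *Sox3* and *Foxd3* in the 4 libraries without and the 4 with BI-9564, coloured by treatment, with circles for replicate 1, triangles for replicate 2 and a line at the mean; each panel has its own axis from 0. *Sox3* (2 against 3 to 7) and *Foxd3* (4 to 6 against 2 to 3) do not overlap, and *Zic2* does.

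*Grhl2*, an activator of epithelial genes in the primed epiblast, showed no ordering by treatment. Its TPM was 3 and 3 under DMSO, 2 and 2 under PFI-3, 4 and 2 under BI-9564 and 1 and 6 under P+B. The 2 P+B libraries were thus the lowest and the highest of all 8. The log2 difference of P+B from DMSO was -0.10 (SE 0.59, adjusted p = 0.953). *Grhl2* (chr15:37233036-37363569, plus strand) overlaps the antisense genes *Gm16136* and *Gm16137* and the pseudogene *Gm16138*.

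*Sox4*, a SOXC factor, was at 3 and 1 TPM under DMSO, 2 and 2 under PFI-3, 2 and 1 under BI-9564 and 2 and 3 under P+B. All groups overlapped, and the log2 difference of P+B from DMSO was 0.29 (adjusted p = 0.769). *Sox4* (chr13:28948919-28953713, minus strand) overlaps the non-coding *Gm26735*.

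*Otx2* and *Fgf5*, the factor and the growth factor most used to mark the formative and primed states, were at or near 0. *Otx2* was at 1 and 0 TPM under DMSO, 2 and 0 under PFI-3, 0 and 0 under BI-9564 and 1 and 0 under P+B. It was above 0 in 3 libraries, all of replicate 1. *Fgf5* (chr5:98254184-98277030, plus strand) was listed at 0 in all 8. Neither passed a filter on low values. With no filter *Otx2* was not called: its log2 difference was 0.00 for P+B against DMSO (interval -1.58 to 1.58, limma adjusted p = 1) and -0.90 for replicate 2 against replicate 1 (interval -1.68 to -0.12, adjusted p = 0.287). *Otx2* (chr14:48657677-48673819, minus strand) overlaps the antisense *Otx2os1* and, on its own strand, *Gm49154*.

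The 2 replicate series were compared across the 4 treatments. *Pou3f1* was higher in replicate 2 than in replicate 1 by 5, 4 and 2 TPM with DMSO, PFI-3 and BI-9564 and lower by 1 with P+B, a log2 difference of 0.58 (SE 0.29, adjusted p = 0.314). *Zic2* was higher by 3, 4 and 6 TPM with PFI-3, BI-9564 and P+B and equal with DMSO, a log2 difference of 0.35 (adjusted p = 0.260). Of the 2 members tested 0 were called, against 1.32% of genes, and of the 6 tested down to a mean of 1 TPM 0 were called, against 0.817%.

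In the same contrast 3 of 12 tested naive genes were called lower in replicate 2, and 11 of 12 lay below 0 (median log2 difference -0.41, all genes -0.01). *Dppa3*, a marker of naive and germ cells, fell most, from 22 to 30 TPM down to 5 to 7 (log2 difference -1.84, adjusted p = 0.00144). *Nanog* (-0.81, adjusted p = 0.00429) and *Zfp42* (-0.69, adjusted p = 0.00528) were the others, and their calls were lost in 4 and 5 of the 8 fits without 1 library, that of *Dppa3* in none. *Jun*, the induced gene, was at 1569 to 2071 TPM in replicate 1 and 2159 to 3011 in replicate 2, higher in 4 of 4 treatments. With P+B *Jun* was 0.37 below DMSO on the log2 scale (log2 difference -0.37, limma adjusted p = 0.437). The difference from DMSO was -0.35 with PFI-3 alone and 0.07 with BI-9564 alone, and neither was called. The part of these differences in the members' values was not tested.

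**Figure D4:**
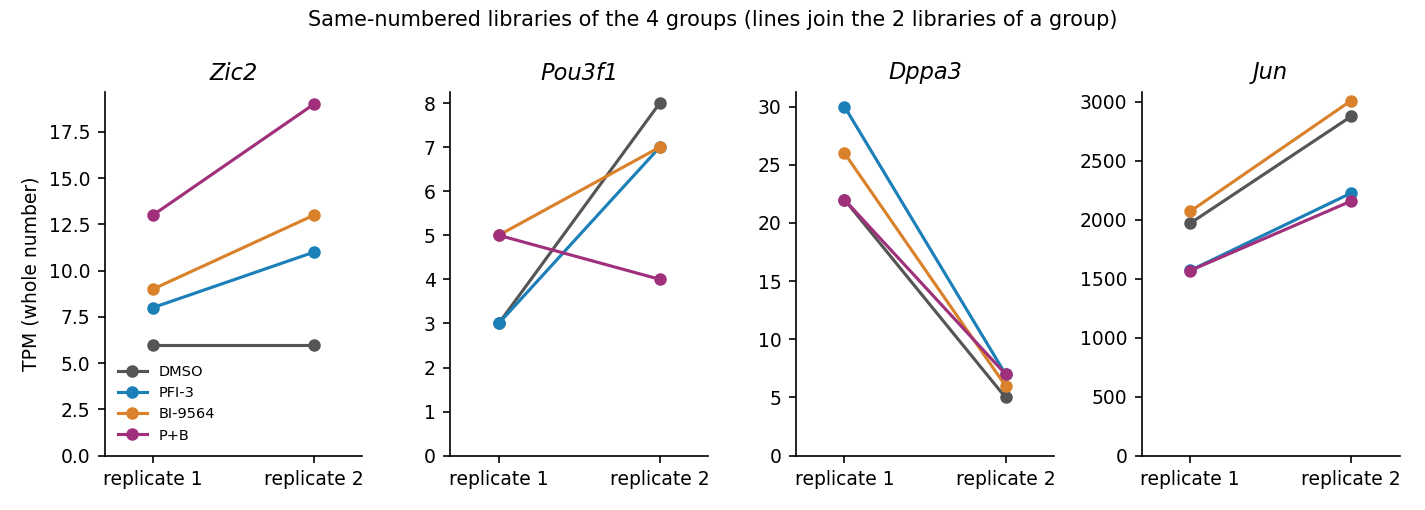
TPM of *Zic2*, *Pou3f1*, *Dppa3* and *Jun* in replicate 1 and replicate 2, with a line joining the 2 libraries of each treatment; each panel has its own axis from 0. *Dppa3* is lower and *Jun* higher in replicate 2 in all 4 treatments, while *Zic2* is equal with DMSO and *Pou3f1* is lower with P+B.

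Other genes of the formative and primed states did not move one way with P+B. Of 14 listed, 8 were tested, 4 above and 4 below 0, with a median log2 difference of -0.01 against 0.06 for all genes. *Pim2*, a kinase that promotes survival, was the one called. Its TPM was 16 and 17 under DMSO, 16 and 14 under PFI-3, 23 and 23 under BI-9564 and 26 and 27 under P+B. It rose by 0.65 with P+B (SE 0.15, adjusted p = 0.0462), a call lost in each of the 8 fits without 1 library. Its libraries with BI-9564 lay above all those without it (log2 difference 0.62, adjusted p = 0.0163), a call lost in 7 of the 8. The de novo methyltransferase *Dnmt3b* (-0.26, adjusted p = 0.136) and the chromatin factor *Utf1* (-0.34, adjusted p = 0.0933) did not pass.

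Of 21 relatives of the members in the same gene families, 7 were tested, 8 were at 0 in all libraries, and 0 were called with P+B. Of the 7, 3 were above 0 and 4 below, with a median of -0.17. *Sox12*, the SOXC relative of *Sox4*, was at 0.61 (adjusted p = 0.206, and called with the replicate block at 0.0356). *Fgf4*, the FGF of naive cells, was at -0.59 (adjusted p = 0.320). *Zic5* (0.35, adjusted p = 0.673), which is in both lists, did not pass, while *Zic1* was at 0 in all 8 libraries. Of the 4 FGF receptors 1 was tested, *Fgfr1* (0.31, adjusted p = 0.271).

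Epithelial genes that GRHL2 is known to regulate lay below DMSO with P+B in 5 of 5 tested of 7 listed, with a median log2 difference of -0.80. Down to a mean of 1 TPM all 7 were tested, with 5 below and 2 above 0 and a median of -0.58. The 2 above were *Rab25* (1 to 2.5 TPM from DMSO to P+B) and *Esrp1* (3.5 to 5 TPM), while *Grhl2* itself was at 1 and 6 TPM there. With the replicate block 2 of the 5 with a mean of at least 5 TPM were called lower, in a fit that called 7.02% of genes. Without the block *Cldn6*, a tight junction claudin, was the one called lower. Its TPM was 103 and 143 under DMSO, 64 and 74 under PFI-3, 58 and 82 under BI-9564 and 29 and 26 under P+B. The log2 difference of P+B from DMSO was -2.10 (SE 0.20, limma adjusted p = 0.00233), in a fit that called 4% of genes. This call held in all 8 fits without 1 library. *Cdh1*, which encodes E-cadherin, differed by -0.58 (adjusted p = 0.00349), short of the fold threshold.

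Naive genes were on no single side with P+B: 8 of the 12 tested were above 0 and 4 below, with a median of 0.12 and 0 called. *Klf2* was at 1.03 (adjusted p = 0.0568) and *Esrrb* at 0.74 (adjusted p = 0.120). Both were called with the replicate block, at 0.00284 and 0.00486. With PFI-3 11 of the 12 were above 0 (median 0.48) and with BI-9564 3 were (median -0.15), with 0 called in either. Of the 9 neural markers 2 were tested, and *Tubb3*, a neuronal tubulin, rose by 0.62 with P+B (adjusted p = 0.0444), a call lost in each of the 8 fits without 1 library. Of the 4 core pluripotency genes 0 were called, with 2 on each side of 0, led by *Sox2* (-0.28, adjusted p = 0.368) and *Sall4* (0.27, adjusted p = 0.291). Of the mesoderm and endoderm markers 1 was tested, *Eomes* (0.33, adjusted p = 0.622).

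**Figure D5:**
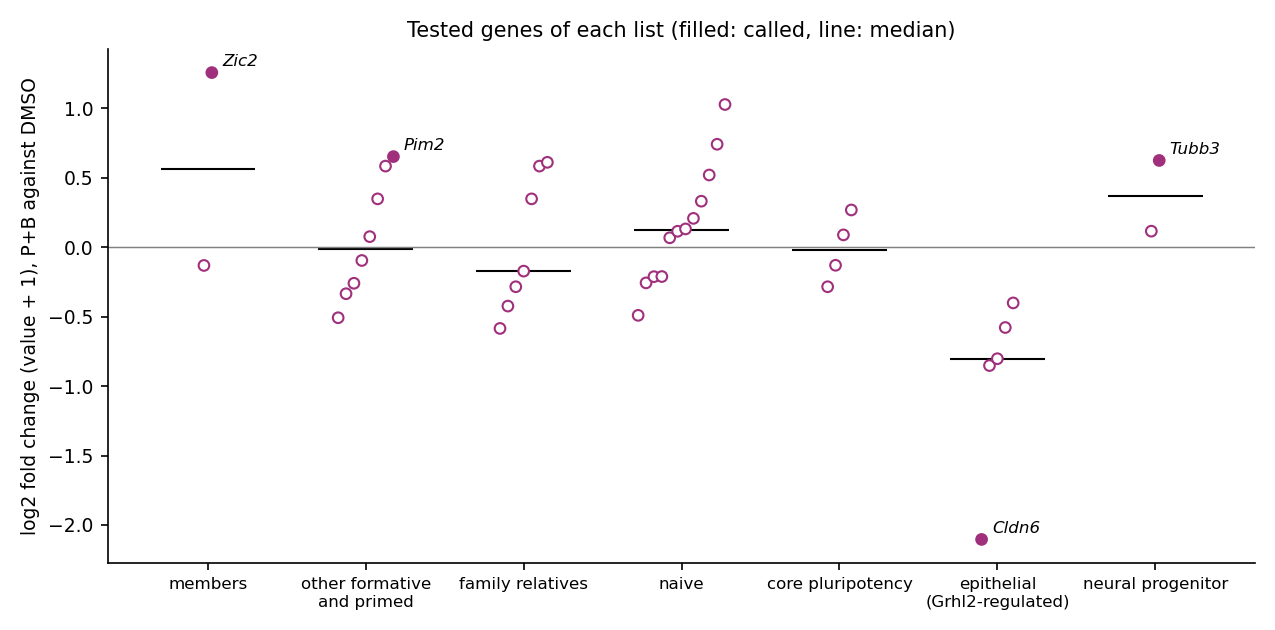
Log2 fold change of TPM + 1 for P+B against DMSO of each tested gene, by list, with filled circles for genes called and a line at the list's median. *Zic2*, *Pim2* and *Tubb3* are called above 0 and *Cldn6* below it, and the 5 epithelial genes with a mean of at least 5 TPM lie below 0.

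As a description over the 8 libraries, the genes whose log2(TPM + 1) values followed *Zic2* most closely were *Arhgef7* (Pearson r = 0.986) and *Atr* (0.979). For *Pou3f1* they were *Grpel1* (0.964) and *Epb41l3* (0.955). The 8 points share treatments and replicate series, and these genes were the top of 10222.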

How the data were processed

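RNA was measured in 8 libraries (4 treatments, 2 each), grouped by their labels. Per the labels and the study's methods, mRNA was enriched with oligo-dT, prepared with a VAHTS mRNA-seq kit and sequenced on a NextSeq500. The submitters' processing notes name bcl2fastq, Bowtie2 2.2.5, RSEM 1.3.0 and mm10. The authors deposited 1 table (50600 gene names), whose values are a score: TPM as whole numbers. Sums just under 1000000 would follow if decimals were dropped, which the notes do not state. Depth is unknown and the authors' DESeq2, which needs counts, was not run.

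On log2(value + 1), limma 3.58.1 (R 4.3.3, lmFit, eBayes with a trend) was fitted to all groups together for genes with a mean of at least 5, with Benjamini-Hochberg adjustment within each comparison. Calls needed an adjusted p below 0.05 and a fold of 1.5 or more. The fold on this scale understates that of low genes. The fit was run on simulated data with known changes and independent noise. The simulation held no difference between the replicate series, so it does not check the fit for the pairing described below.

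All 8 members are named. Of each other list, genes called in a comparison are named, or else the up to 2 with the largest change with P+B, and for each tested member its 2 closest genes. Those named beyond this (*Dnmt3b*, *Utf1*, *Zic1*, *Zic5*, *Cdh1*, *Rab25*, *Esrp1*, *Klf2* and *Esrrb*, and marker genes given by level) were chosen after their values were seen. The members and lists were chosen with earlier results of these data known. Same-numbered libraries deviated together (r = 0.143 to 0.236 over 6 pairs of groups, across 10222 genes, which are not independent). The numbers were therefore taken to pair them in the fits with a replicate block. The main fit held the group only and did not use this pairing. GENCODE M21 (GRCm38, mm10) gave the positions.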

Additional observations from a re-analysis of the deposited data

How the results depend on the processing

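With P+B against DMSO 1 member (*Zic2*) was called. The count was 0 with genes down to a mean of 1, with no filter on low values and with quantile normalization. It was also 0 with only the 4 libraries compared, where 0 of all 10222 genes were called. The call of *Zic2* was lost in each of the 8 fits without 1 library, which leave 1 library in a group and called fewer genes. *Zic2* kept its direction in all 19 other settings tried and its call in 7, at a log2 difference of 0.92 to 1.51 and an adjusted p of 0.0125 to 0.219. It stayed called with a pseudocount of 0.5 or 5, median centring, no trend, no fold threshold, and the replicate block at either filter, where the count was 1. With BI-9564 present against absent, 0 members were called, and 1 with the replicate block, also down to a mean of 1 with it. At the filter of 1 the block thus restored the call of *Zic2* with P+B and added its call with BI-9564 present against absent. It changed no other call of a member there. The cause was not tested.

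Without 1 library, some log2 differences that were not called turned sign. For *Pou3f1* these were PFI-3 against DMSO (-0.67 to 0.41), BI-9564 against DMSO (-0.38 to 0.41), P+B against PFI-3 (-0.55 to 0.45), BI-9564 against PFI-3 (-0.21 to 0.79), P+B against the sum (-0.75 to 0.33), BI-9564 present against absent (-0.21 to 0.33) and PFI-3 present against absent (-0.50 to 0.04). For *Zic2* they were BI-9564 against PFI-3 (-0.06 to 0.43) and P+B against the sum (-0.33 to 0.19). Without DMSO replicate 2, its highest library at 8 TPM, *Pou3f1* fell below the minimum mean of 5 and was not tested. The ranges of *Pou3f1* leave out that fit. The absence of P+B against DMSO from its list therefore does not show that this sign is stable. Of the other genes called with P+B against DMSO, over 20 settings *Cldn6* lost its call in 1, *Pim2* in 14 and *Tubb3* in 13. None turned sign. The 1 for *Cldn6* was the 4 libraries compared alone, where 0 of 10222 genes were called. A minimum mean of 20 left no member tested. Whole numbers at 1 to 7 TPM and unknown depth limit the other members.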
